A study of Mus musculus with 11 samples.

Results

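The genes described here are the ephrins, Eph receptors, semaphorins, plexins, neuropilins, Slits, Robos, netrins and Unc5 receptors, the main families of secreted and membrane-bound cues that steer cells and axons. They were chosen by name from the protein-coding genes, and 67 genes matched, the same 67 among the 31518 genes listed for mouse embryonic stem cells (mESCs) and the 29450 listed for mouse embryonic fibroblasts (MEFs). Of these, 34 encode ligands (8 ephrins, 20 semaphorins, 3 Slits and 3 netrins) and 33 encode receptors (14 Eph receptors, 9 plexins, 2 neuropilins, 4 Robos and 4 Unc5 receptors).

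Ephrins are held at the cell surface and are bound by Eph receptor tyrosine kinases on the neighbouring cell, so that contact can repel or hold cells. Semaphorins signal through plexins, and the secreted class 3 semaphorins mostly need a neuropilin as co-receptor, with Sema3e, which binds Plxnd1 directly, as an exception. Slits bind Robos, and netrins bind Unc5 receptors among others. Besides axons, these cues act on vessels, neural crest cells and mesenchyme, and plexins, Eph receptors and Robos signal to the cytoskeleton.

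Poly(A)+ RNA was sequenced from untreated Atxn7l3+/+ (WT) and Atxn7l3-/- cells of the DBA/2 x C57BL/6 strain, in 2 WT and 3 Atxn7l3-/- mESC libraries and in 3 WT and 3 Atxn7l3-/- MEF libraries. Atxn7l3 encodes an adaptor of the SAGA deubiquitylation module, which takes ubiquitin off histone H2B, and the mutation was inherited, so every cell of an embryo carried it. mESC lines came from individual blastocysts and were grown with serum, LIF, PD0325901 and CH99021, on feeders in the earliest passages only. MEFs came from individual E10.5 embryos without head and gut, and the Atxn7l3-/- cultures, which the study called MEF-like, held many round cells. A further WT mESC dataset, which the study set aside after principal component analysis, was not analysed here. Library totals ranged from 34515342 to 49602605 counts, and 3 counts, the floor used here, is a limit on counting error only.

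Atxn7l3 itself was at 222 and 223 normalized counts (CPM, scaled to the size of the library) in the WT mESCs and at 3.91, 1.79 and 0.976 CPM in the Atxn7l3-/- mESCs. In MEFs it was at 79.7, 104 and 92.9 CPM in the WT libraries and at 49.2, 49.5 and 67.3 CPM in the Atxn7l3-/- libraries, which did not overlap but missed the threshold (log2 fold change -0.74, adjusted p = 0.0715, edgeR's quasi-likelihood test, adjusted over all genes tested by the Benjamini-Hochberg procedure). Counts per gene therefore checked the genotype labels in mESCs but not in MEFs. The study could not detect ATXN7L3 protein in Atxn7l3-/- cells of either type. Why the counts stayed higher in Atxn7l3-/- MEFs than in Atxn7l3-/- mESCs was not tested. Markers also moved with genotype. In MEFs the summed level of 6 mesothelial markers was between 17.6 and 43.1 CPM in WT and between 5377 and 7630 CPM in Atxn7l3-/- libraries, and 5 of the 6 rose. The summed level of 6 neural crest and Schwann cell markers was between 25.5 and 192 CPM in WT and between 3.19 and 7.71 CPM in Atxn7l3-/- MEFs, and 5 of the 6 fell. Fibroblast markers were abundant in every MEF library, at 6489 CPM or more in sum. In mESCs the fibroblast sum was 27.9 and 108 CPM in WT and between 313 and 432 CPM in Atxn7l3-/- libraries, while pluripotency markers were between 3764 and 4643 CPM in all. The part of these cells in the results below was not tested, and in such bulk samples fewer cells of a type and less RNA per cell cannot be told apart.

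**Figure D1:**
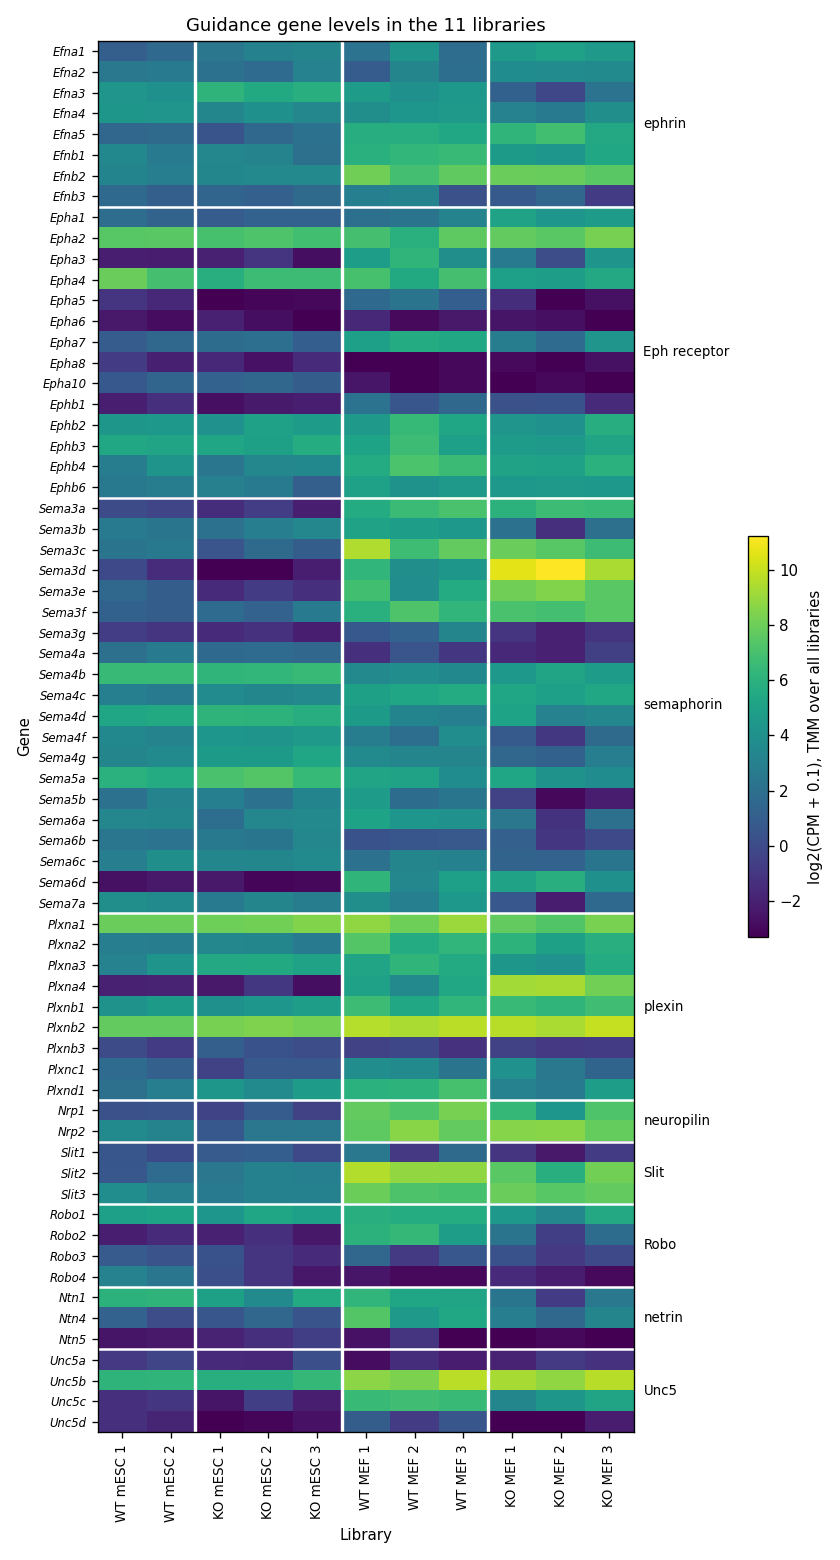
Levels of the 67 guidance genes (rows, by family) in the 11 libraries (columns), as log2 of CPM plus 0.1, normalized by the trimmed mean of M values (TMM) over all libraries, with white lines between groups and families. KO marks the Atxn7l3-/- libraries. Sema3a, Sema3c, Sema3f, the neuropilins, Slit2 and Slit3 were brighter in MEFs, and Sema3d and Plxna4 were brightest in the Atxn7l3-/- MEFs.

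The level of each gene was first compared between genes, as CPM per kb of the deposited median transcript length, with CPM normalized over all libraries together. In mESCs the receptors Plxnb2, a receptor of class 4 semaphorins, at a median of 379 CPM per kb (range over 5 libraries 267 to 434) and Plxna1, a partner of neuropilins, at 375 CPM per kb (338 to 496) stood highest, and their ranges overlapped. Epha2, an Eph receptor of early embryonic cells, followed at 197 CPM per kb (152 to 241), ahead of Epha4 at 29.3 CPM per kb (16.3 to 69.3). Among ligands the transmembrane semaphorins Sema4d, at 96.2 CPM per kb (68.8 to 128), and Sema4b, at 27.3 (22.2 to 28.6), and the ephrin Efna3, at 60.7 (21 to 96.7), led. Efna4 was at 9.90 CPM per kb. The remaining families were low. Unc5b was at 12.6 CPM per kb, Slit3 at 9.59, Ntn1 at 8.30, Robo1 at 3.98 and Slit2 at 2.17, and the neuropilins were at 0.871 (Nrp2) and 0.347 (Nrp1). Ntn4 (0.669), Unc5a (0.495) and Robo3 (0.293) were lower still than Nrp2 on this scale.

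In MEFs the same leading receptors were found. Plxnb2 was at a median of 1025 CPM per kb (range over 6 libraries 853 to 1275), Plxna1 at 414 (219 to 741) and Epha2 at 249 (80.3 to 410), and the ranges of the last 2 overlapped. The ligands are given for each genotype. In WT MEFs Slit2, at a median of 185 CPM per kb (range over 3 libraries 180 to 305), Slit3, at 165 (147 to 290), Sema3c, at 137 (67.8 to 473), and Sema3f, at 96.6 (74.0 to 189), stood highest, with ranges that overlapped. In Atxn7l3-/- MEFs Sema3d, at 497 CPM per kb (206 to 754), stood ahead of Slit3, at 248 (199 to 279), and Sema3f, at 165 (147 to 221), again with overlapping neighbours. Over all 6 libraries Efnb2, an ephrin that spans the membrane, was at 78.2 CPM per kb (42.6 to 97.1) and Efnb1 at 24.5. Unc5b was at 97.1 CPM per kb, Nrp2 at 47.6, Nrp1 at 46.2, Ephb6 at 32.4 and Unc5c at 16.7. Ntn4 (7.94), Robo1 (6.22), Robo2 (4.03) and Ntn1 (3.70) were lower. These orders depend on the length used, since the deposited median is short for several long mRNAs, 786.5 bases for Plxnb2 and 706.5 for Plxna1. With the longest protein-coding transcript of each gene as its length, chosen after seeing the data, Plxnb2 stayed first in both cell types (45.9 and 124 CPM per kb), whereas Plxna1 (29.3 in mESCs and 32.4 in MEFs) came after Epha2 (37.8 and 47.8), Sema4b (22.6) passed Sema4d (11.8) in mESCs, and over all MEF libraries Unc5b (94.5) passed Epha2 and Plxna1, and Sema3d (58.4) and the membrane-bound Efnb2 (45.9) passed Sema3f (37.1), Slit3 (37.0), Slit2 (36.7) and Sema3c (35.5).

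WT MEFs were then compared with WT mESCs, which differ in cell type, medium and day of derivation together. Of 66 guidance genes tested, 33 were higher in MEFs, against 26.8% of all 19326 genes tested, and 7 (10.6%) were lower, against 27.1% of all genes. The median log2 difference of the guidance genes was 1.84, beside -0.00 over all genes tested. Both neuropilins, 6 of 9 plexins, 9 of 20 semaphorins, 6 of 13 Eph receptors tested and 4 of 8 ephrins were higher.

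Among the largest differences were those of Sema3a, Nrp1 and Plxna4, a class 3 semaphorin with a co-receptor and a plexin, all low in WT mESCs. Sema3a, a repellent that signals through Nrp1 and A-type plexins, was at 0.947 and 0.713 CPM in WT mESCs and at 49.0, 97.3 and 135 CPM in WT MEFs (log2 difference 6.80, SE 0.64, adjusted p = 2.24e-05). Nrp1 went from 1.12 and 1.20 CPM to 211, 149 and 308 CPM (7.57, SE 0.96, adjusted p = 0.00013). Plxna4, a plexin of sensory and sympathetic axons, went from 0.155 and 0.163 CPM to 32.4, 11.4 and 40.7 CPM (7.43, SE 0.89, adjusted p = 9.69e-05). No MEF library of these 3 genes came near the mESC range. Slit2 went from 1.43 and 3.34 CPM to 760, 462 and 448 CPM (7.85, SE 0.81, adjusted p = 3.83e-05), and its receptor Robo2 from 0.135 and 0.244 CPM to 65.2, 81.7 and 27.9 CPM (8.24, SE 1.11, adjusted p = 0.000189). The netrin receptor Unc5c went from 0.290 and 0.387 CPM to 88.5, 108 and 88.1 CPM (8.11, SE 0.90, adjusted p = 5.96e-05). Slit2, Robo2 and Unc5c were each far above their mESC level in all WT MEF libraries, whereas Robo1 (0.75, adjusted p = 0.206) and Robo3 (0.08, adjusted p = 0.944) did not pass. The largest log2 difference, 8.83 (SE 1.17, adjusted p = 0.000171), was that of the transmembrane semaphorin Sema6d, at 3 and 5 counts in the WT mESCs, and Epha3 differed by 8.19 (SE 1.53, adjusted p = 0.00131), from 7 and 6 counts in the WT mESCs.

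The 7 genes that were lower in WT MEFs were 4 transmembrane semaphorins and 3 receptors. All but Sema4b and Sema4d were at low levels in WT mESCs. Robo4, the Robo of endothelial cells, was at 8.83 and 5.13 CPM in WT mESCs and at no more than 0.0823 CPM in WT MEFs (-7.10, SE 1.11, adjusted p = 0.000454). Sema4b was at 89.3 and 90.2 CPM in WT mESCs and at 11.3, 14.2 and 11 CPM in WT MEFs (-2.89, SE 0.26, adjusted p = 1.74e-05). Sema4a (-2.92), Sema6b (-1.82), Sema4d (-1.62) and Epha10 (-5.63) were also lower. Epha8 had no more than 1 count in any WT MEF library and was at least 4.09-fold lower than in mESCs, against the floor of 3 counts per library.

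Next, Atxn7l3-/- MEFs were compared with WT MEFs, to ask which cues and receptors change when the deubiquitylation module is lost. From here CPM are normalized within the cell type. Of 62 guidance genes tested, 3 (4.84%) rose, against 5.01% of all 15958 genes tested, and 9 (14.5%) fell, against 4.39% of all genes. The genes that fell were 6 ligands (Sema5b, Sema3g, Ntn1, Ntn4, Efna3 and Efnb1) and 3 receptors (Epha5, Robo2 and Unc5c), and those that rose were Sema3d, Plxna4 and Epha1. At an unadjusted p under 0.05 there were 6 higher and 23 lower. The median log2 fold change was -0.94 over the guidance genes and -0.06 over all genes tested. The WT and Atxn7l3-/- libraries did not overlap for 22 genes with lower values (35.5%, against 19.8% of all genes) and for 7 with higher values (11.3%, against 20.0%).

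The number of calls moved with the model. Same-numbered WT and Atxn7l3-/- MEF libraries deviated together, and when that number entered the model as a block 4 guidance genes rose, against 5.50% of all genes, and 15 fell (24.2%), against 8.49% of all genes. The block kept all 12 genes and added Sema4b among those that rose and Unc5d, Sema7a, Slit1, Plxnd1, Sema4f and Epha4 among those that fell. Fold changes in MEFs also followed the GC content of the transcripts (Spearman correlation of -0.39 across all genes, which are not independent replicates). With that trend removed from each library 4 rose, against 4.52% of all genes, and 4 fell (6.45%), against 3.24% of all genes, namely Epha5, Robo2, Unc5c and Efnb1. Without WT replicate 1, WT replicate 3 or Atxn7l3-/- replicate 1 none fell, and without WT replicate 2, Atxn7l3-/- replicate 2 or Atxn7l3-/- replicate 3 there were 2, 3 and 9 that fell. In the same order 2, 1, 1, 3, 1 and 3 rose. Over all genes, in that order, 191, 77, 90, 395, 86 and 1049 fell and 273, 120, 162, 471, 199 and 989 rose, of 16268 to 16769 tested. Without Atxn7l3-/- replicate 3 the 9 that fell were not the same 9, since 7 of the 12 called genes kept their call and 5 did not. Plxna4 kept its call without each of the 6 libraries.

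Sema3d, a secreted class 3 semaphorin, showed the largest rise. It was at 69.4, 12.9 and 18.0 CPM in WT MEFs and at 1368, 2141 and 606 CPM in Atxn7l3-/- MEFs. The lowest Atxn7l3-/- library stood well above the highest WT library. The log2 fold change was 5.36 (SE 0.88, adjusted p = 0.0217), and over the alternatives without 1 library the adjusted p ranged from 0.0245 to 0.072. It passed in 3 of these 6, those without WT replicate 1, WT replicate 2 and Atxn7l3-/- replicate 3. Its neighbour on chromosome 5, Sema3e, was at 102, 12.5 and 43.7 CPM in WT and at 236, 316 and 168 CPM in Atxn7l3-/- MEFs, without overlap, but missed the threshold (2.18, SE 0.71, adjusted p = 0.0919). Sema3a, which lies between them, was at 44.7 to 118 CPM in WT and 56.9 to 89.9 CPM in Atxn7l3-/- MEFs (-0.12, SE 0.37, adjusted p = 0.848). The 3 genes span 1873 kb of mm10, from 12383385 to 14256689 on chromosome 5, with Speer3 as the only other protein-coding gene listed between them.

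Several other ligands fell. Sema5b, a transmembrane semaphorin of the developing nervous system, was at 23.5, 3.12 and 4.36 CPM in WT MEFs and at 0.508, 0.0228 and 0.110 CPM in Atxn7l3-/- MEFs (-5.57, SE 1.33, adjusted p = 0.0481, and 0.0867 with the GC trend removed). The Atxn7l3-/- libraries held 22, 1 and 4 counts of Sema5b, and the fold depends on these few counts. Sema3g, a class 3 semaphorin that binds Nrp2, was at 1.35, 2.09 and 8.51 CPM in WT and at 0.3, 0.137 and 0.330 CPM in Atxn7l3-/- MEFs (-3.95, SE 0.88, adjusted p = 0.0428, and 0.0553 with the GC trend removed). In neither gene did the groups overlap, and in both 1 WT library stood well above the other WT libraries. The sum of 8 neuronal markers was also lower in Atxn7l3-/- MEFs, at 145 to 264 CPM in WT and 8.65 to 43.6 CPM in Atxn7l3-/- libraries. Of the 5 tested, 2 fell. The sum of 4 cartilage markers was at 175 to 630 CPM and 2.65 to 8.41 CPM, and of 3 tested 1 fell, Col2a1. In WT replicates 1, 2 and 3 Col2a1 was at 158, 555 and 456 CPM. The part of these cells in the results was not tested. Ntn1, the classical netrin, was at 70.5, 34 and 32.3 CPM in WT and at 4.32, 0.433 and 5.16 CPM in Atxn7l3-/- MEFs (-3.79, SE 0.87, adjusted p = 0.0451, and 0.0664 with the GC trend removed). Ntn4, a netrin of basement membranes, was at 150, 21.5 and 36.3 CPM in WT and at 6.30, 2.53 and 8.90 CPM in Atxn7l3-/- MEFs (-3.55, SE 0.86, adjusted p = 0.0495, and 0.0624 with the GC trend removed). Both netrins tested thus fell, while Ntn5 had no more than 1 count in any Atxn7l3-/- library and was not tested.

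Of the ephrins, Efna3 was at 22.7, 14.3 and 18.9 CPM in WT and at 1.92, 0.684 and 4.15 CPM in Atxn7l3-/- MEFs (-3.05, SE 0.66, adjusted p = 0.0404, and 0.0563 with the GC trend removed). Efnb1, which lies on the X chromosome, was at 54.4, 71.3 and 77.8 CPM in WT and at 20.8, 17.5 and 36.8 CPM in Atxn7l3-/- MEFs (-1.44, SE 0.33, adjusted p = 0.0446). The part of sex in this result was not tested. WT replicate 3, the MEF library with 300 CPM of Xist and 0.414 CPM or less of each of 4 Y-linked markers, had the highest Efnb1 level. Without that replicate the adjusted p rose above the threshold, as it did without each of 4 others, over a range of 0.0259 to 0.135. The other ephrins did not pass. Efnb2, the most abundant, was at 249, 108 and 183 CPM in WT and at 205, 205 and 165 CPM in Atxn7l3-/- MEFs (0.09, SE 0.32, adjusted p = 0.869).

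Among receptors Plxna4 rose most, from 29.5, 10.3 and 35.6 CPM in WT to 508, 568 and 264 CPM in Atxn7l3-/- MEFs. All Atxn7l3-/- libraries stood far above the WT libraries. The log2 fold change was 4.15 (SE 0.57, adjusted p = 0.0144). Epha1, a receptor of A-type ephrins found mostly in epithelia, went from 3.75, 4.21 and 7.89 CPM to 28.6, 17.4 and 23.6 CPM (2.13, SE 0.39, adjusted p = 0.028). Of 6 epithelial markers 3 were tested in MEFs and 1 rose, Krt18, from 0.394, 0.614 and 0.174 CPM to 27.4, 4.74 and 21 CPM (5.49, adjusted p = 0.0189). Cdh1, the defining marker, was at 1.39 CPM or less in every MEF library and did not pass (-1.58, adjusted p = 0.229), and their part in the Epha1 result was not tested. Its ligand Efna1 was at 4.17, 16.4 and 3.12 CPM in WT and at 19.4, 28.9 and 21.9 CPM in Atxn7l3-/- MEFs, without overlap, and missed the threshold (1.57, SE 0.65, adjusted p = 0.148).

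Receptors that fell came from 3 families. Robo2 was at 59.5, 73.6 and 24.4 CPM in WT and at 4.06, 0.479 and 3.13 CPM in Atxn7l3-/- MEFs (-4.36, SE 0.84, adjusted p = 0.0309). Unc5c was at 80.7, 97.3 and 77.1 CPM in WT and at 8.66, 18.5 and 33.7 CPM in Atxn7l3-/- MEFs (-2.07, SE 0.47, adjusted p = 0.0447). Epha5, an Eph receptor of neural tissue, was at 2.83, 4.21 and 1.68 CPM in WT and had 10, 0 and 2 counts in the Atxn7l3-/- libraries (-4.88, SE 1.12, adjusted p = 0.0444, a fold that depends on these few counts). The groups did not overlap for any of the 3. The adjusted p without 1 library ranged from 0.043 to 0.0719 for Robo2, which passed in 2 of 6, and from 0.0259 to 0.146 for Unc5c, which passed in 1 of 6, while Epha5, Sema5b and Sema3g passed in none.

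**Figure D2:**
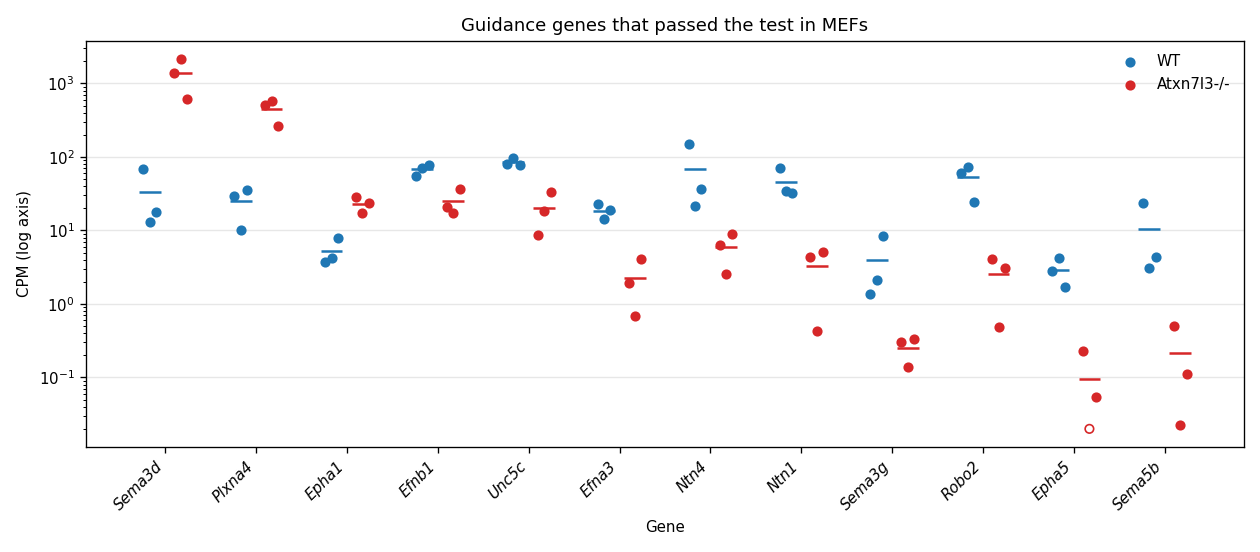
CPM on a log axis of the 12 guidance genes that passed the test in MEFs, ordered by log2 fold change, with 3 WT (blue) and 3 Atxn7l3-/- (red) libraries as points and the group mean as a line. The open point, drawn at 0.02 CPM, is a library with 0 counts, and the groups do not overlap for any of the 12 genes.

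The partners of these genes were read side by side. Of the class 3 semaphorins other than Sema3d and Sema3g, Sema3c was at 94.7 to 668 CPM in WT and 94.3 to 208 CPM in Atxn7l3-/- MEFs (-1.05, adjusted p = 0.334) and Sema3f at 54.6 to 138 CPM and 105 to 164 CPM (0.56, adjusted p = 0.343). Their co-receptor Nrp2 was at 177 to 365 CPM and 203 to 362 CPM (0.29, adjusted p = 0.61), and Nrp1 at 135 to 269 CPM and 17.8 to 137 CPM (-1.40, adjusted p = 0.197). Groups overlapped for all 4 genes. Plxnd1, the receptor of Sema3e, was at 57.6, 61.4 and 112 CPM in WT and at 7.50, 5.61 and 26.1 CPM in Atxn7l3-/- MEFs (-2.56, SE 0.64, adjusted p = 0.0545, and 0.017 with the replicate block). So the ligand Sema3e and its receptor Plxnd1 lay on opposite sides of 0, each without overlap between the groups. Of the A-type plexins other than Plxna4, Plxna1 (-0.86, adjusted p = 0.165), Plxna2 (-0.92, adjusted p = 0.231) and Plxna3 (-0.86, adjusted p = 0.264) had negative values that did not pass. For Robo2, the ligand Slit2 was at 693, 416 and 392 CPM in WT and at 158, 52.3 and 260 CPM in Atxn7l3-/- MEFs (-1.68, adjusted p = 0.102), and Slit3 at 111 to 229 CPM and 152 to 207 CPM (0.25, adjusted p = 0.606). For the netrins, Unc5b remained the most abundant Unc5 receptor, at 298 to 739 CPM in WT and 404 to 748 CPM in Atxn7l3-/- MEFs (0.26, adjusted p = 0.679). The abundant receptors Plxnb2 (0.08, SE 0.26, adjusted p = 0.845) and Epha2 (0.90, SE 0.44, adjusted p = 0.203) did not pass.

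In mESCs Atxn7l3-/- libraries were compared with WT in the same way. Of 60 guidance genes tested, 4 (6.67%) rose, against 3.08% of all 17800 genes tested, and 2 (3.33%) fell, against 3.88% of all genes. The genes that rose were Efna3, Plxna3, Sema4g and Sema5a, and those that fell were Robo4 and Sema3e. At an unadjusted p under 0.05 there were 12 higher and 7 lower. The median log2 fold change was -0.01 over the guidance genes and 0.04 over all genes tested. The libraries did not overlap for 16 genes with higher values (26.7%, against 24.6% of all genes) and for 14 with lower values (23.3%, against 25.1%). Without Atxn7l3-/- replicate 1 no guidance gene passed, beside 0 genes that rose and 3 that fell of all 17530 tested. None passed in 1 fit of all 11 libraries either, beside 144 and 302 of 19326 genes. Without Atxn7l3-/- replicate 2, 4 rose and 1 fell, beside 1061 and 1181 of 17495 genes. Without Atxn7l3-/- replicate 3, 4 rose and 3 fell, beside 767 and 747 of 17551 genes. Leaving out a WT replicate leaves 1 library in that group, so counts from such fits are not given.

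Efna3 was at 21 and 17.3 CPM in WT mESCs and at 85.4, 50.3 and 66.6 CPM in Atxn7l3-/- mESCs. The lowest Atxn7l3-/- library was well above both WT libraries. The log2 fold change was 1.81 (SE 0.28, adjusted p = 0.0231). Sema4g, a transmembrane semaphorin, went from 10.8 and 13.2 CPM to 28.9, 27.7 and 44.4 CPM (1.48, SE 0.31, adjusted p = 0.0363). Sema5a, whose thrombospondin repeats bind proteoglycans, went from 70.7 and 54.7 CPM to 157, 182 and 104 CPM (1.24, SE 0.28, adjusted p = 0.0426). For both, all Atxn7l3-/- libraries were above both WT libraries.

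Plxna3, an X-linked plexin that works with Nrp2 in class 3 semaphorin signalling, went from 9.47 and 20.3 CPM in WT to 53.5, 51.2 and 39.3 CPM in Atxn7l3-/- mESCs (1.69, SE 0.36, adjusted p = 0.0393). The X chromosome took 4.71% and 5.08% of the counts of Atxn7l3-/- replicates 1 and 2 and between 2.74% and 2.94% of those of the other mESC libraries. The Y-linked Ddx3y was at 3.46 and 0.882 CPM in replicates 1 and 2, against 225 CPM in replicate 3 and 90.6 and 193 CPM in WT, so sex and genotype cannot be fully told apart in any mESC comparison of genotypes. Plxna3 was lowest among the Atxn7l3-/- libraries in replicate 3, the one with 2.74%, and was above both WT libraries there. The part of sex in this result was not tested. Plxnd1 (1.86, SE 0.45, adjusted p = 0.0521), Efna1 (1.71, SE 0.45, adjusted p = 0.0597) and Sema4f (1.08, SE 0.28, adjusted p = 0.0579) were also without overlap and just outside the threshold.

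Robo4 fell most, from 9.82 and 5.70 CPM in WT to 1.26, 0.405 and 0.106 CPM in Atxn7l3-/- mESCs (-3.72, SE 0.86, adjusted p = 0.0454). The endothelial marker Tie1 fell as well, from 4.68 and 5.16 CPM to 0.541, 0.119 and 0.185 CPM (-4.14, adjusted p = 0.0256), whereas the endothelial marker Pecam1 was at 303 to 443 CPM in all mESC libraries and Cdh5 was under 0.22 CPM in each. Sema3e fell from 3.31 and 2.06 CPM to 0.271, 0.548 and 0.369 CPM (-2.74, SE 0.54, adjusted p = 0.0324). Sema3d was at 42 and 13 counts in WT and at 0, 0 and 6 counts in Atxn7l3-/- mESCs (-3.42, adjusted p = 0.105, a fold that depends on these few counts). Epha5 and Unc5d were below the filter and had at most 3 counts in any Atxn7l3-/- mESC library, at least 3.95-fold and 3.41-fold lower than in WT against the floor of 3 counts per library. No gene passed among the 10 Eph receptors, 3 Slits, 3 netrins, 2 neuropilins and 3 Unc5 receptors tested.

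**Figure D3:**
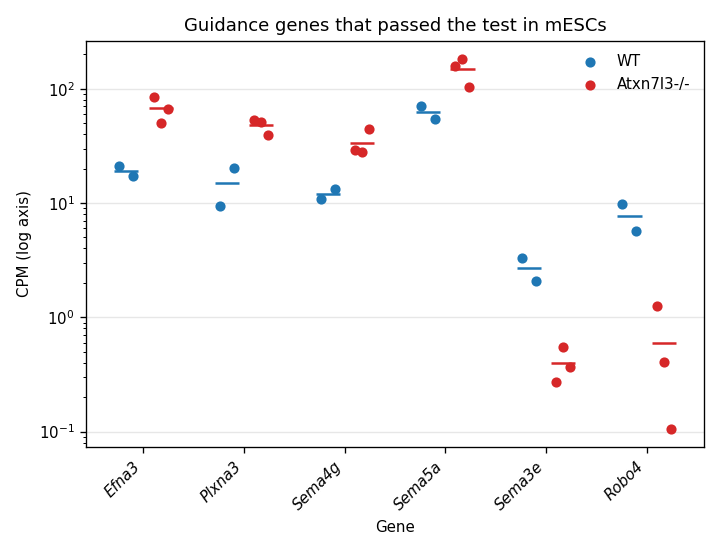
CPM on a log axis of the 6 guidance genes that passed the test in mESCs, with 2 WT (blue) and 3 Atxn7l3-/- (red) libraries as points and the group mean as a line. Robo4 and Sema3e, at the right, lie lower in the Atxn7l3-/- libraries, and the other 4 genes lie higher, without overlap.

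Whether the effect of the mutation differed between the cell types was tested with an interaction term (genotype by cell type) in a model of the 11 libraries. Of 66 guidance genes tested, the effect in MEFs was above that in mESCs for 6 (9.09%), against 6.14% of all genes, and below it for 7 (10.6%), against 5.27% of all genes. The 6 were Sema3d, Robo4, Sema3e, Plxna4, Epha1 and Sema4b, and the 7 were Sema5b, Efna3, Plxnd1, Robo2, Slit2, Sema4g and Plxna3. Robo4 had at most 9 counts in any MEF library, which is below the filter of the MEF fit. The median difference of the effects was -0.88 on the log2 scale over the guidance genes and -0.09 over all genes tested. Without Atxn7l3-/- mESC replicate 1, 3 guidance genes passed above and 2 below, beside 494 and 393 of all 19119 genes tested. Without Atxn7l3-/- mESC replicate 3 it was again 3 and 2, beside 582 and 493 of 19152 genes. Leaving out a WT mESC replicate leaves 1 library in that group, so counts from such fits are not given. With the replicate block 5 and 7 passed, of which 10 were among the 13, since Robo2 (adjusted p = 0.0734), Plxna3 (0.0538) and Plxna4 (0.0833) no longer passed.

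Efna3 was the guidance gene that passed in both cell types, and it did so in opposite directions, at 1.81 in mESCs and -3.05 in MEFs (difference -4.81, SE 0.78, adjusted p = 0.00701). WT levels were alike in the 2 cell types, 18.9 and 15.6 CPM in mESCs and 24.9, 15.8 and 21.6 CPM in MEFs when normalized over all libraries. It lies between Efna1 and Efna4 within 66.3 kb of the minus strand of chromosome 3 (89271733 to 89338028 in mm10), with no other protein-coding gene listed between them. Efna1 had values of 1.71 in mESCs and 1.57 in MEFs, and Efna4 of -0.66 and -0.96, none past the threshold. Sema3e had values of opposite sign too, with -2.74 in mESCs and 2.18 in MEFs (difference 4.99, SE 0.93, adjusted p = 0.0121) although its MEF value alone missed the threshold, and so did Sema3d, with -3.42 from few counts in mESCs and 5.36 in MEFs (difference 8.86, SE 1.44, adjusted p = 0.00693), of which the mESC value alone missed the threshold. Sema3d and Sema3e thus differed between the cell types in the same direction, and Plxnd1, with 1.86 and -2.56, neither past the threshold alone, in the other (difference -4.36, SE 0.88, adjusted p = 0.0162).

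**Figure D4:**
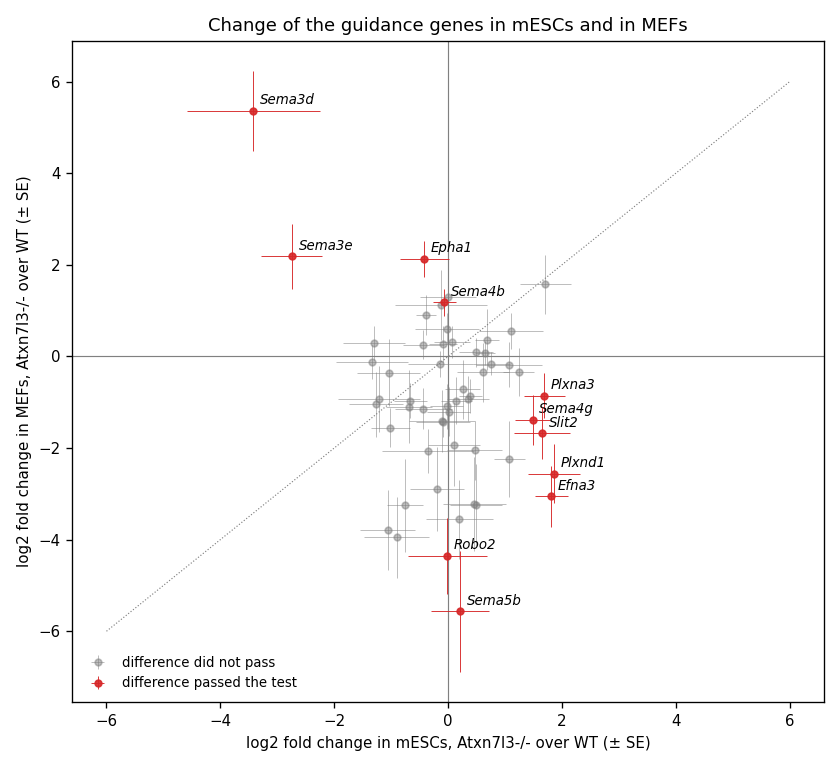
Log2 fold change of Atxn7l3-/- over WT in mESCs (horizontal axis) and in MEFs (vertical axis), each with its standard error, for the 56 guidance genes tested in both, with equal effects on the dotted line. Red points are genes whose difference passed the test, with Sema3d and Sema3e at the upper left and Efna3, Plxnd1, Slit2, Sema4g and Plxna3 at the lower right.

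The sequences before the start of 4 of these genes are given because they hold the largest rise and the largest fall that passed in each cell type, Sema3d and Sema5b in MEFs and Efna3 and Robo4 in mESCs. Each is the 250 bases before the RefSeq start nearest to the deposited gene start, on GRCm38.p6, written 5′ to 3′ on the strand of the gene, with each CG dinucleotide in capitals.
Sema3d (chr5:12382916-12383165, plus strand): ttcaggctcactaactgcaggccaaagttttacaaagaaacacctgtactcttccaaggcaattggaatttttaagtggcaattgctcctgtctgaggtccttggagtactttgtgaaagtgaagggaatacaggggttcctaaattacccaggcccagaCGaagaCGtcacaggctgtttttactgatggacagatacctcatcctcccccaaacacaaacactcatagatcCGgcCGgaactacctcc
Sema5b (chr16:35541112-35541361, plus strand): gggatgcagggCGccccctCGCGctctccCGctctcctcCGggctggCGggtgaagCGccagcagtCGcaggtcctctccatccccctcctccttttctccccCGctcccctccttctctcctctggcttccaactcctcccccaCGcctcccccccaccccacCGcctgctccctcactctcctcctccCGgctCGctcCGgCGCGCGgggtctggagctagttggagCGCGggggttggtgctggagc
Efna3 (chr3:89322940-89323189, minus strand): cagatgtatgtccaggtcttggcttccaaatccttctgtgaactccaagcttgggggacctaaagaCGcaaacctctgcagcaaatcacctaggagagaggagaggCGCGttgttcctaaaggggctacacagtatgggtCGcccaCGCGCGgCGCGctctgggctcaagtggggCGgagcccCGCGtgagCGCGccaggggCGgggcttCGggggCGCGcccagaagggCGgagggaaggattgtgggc
Robo4 (chr9:37401722-37401971, plus strand): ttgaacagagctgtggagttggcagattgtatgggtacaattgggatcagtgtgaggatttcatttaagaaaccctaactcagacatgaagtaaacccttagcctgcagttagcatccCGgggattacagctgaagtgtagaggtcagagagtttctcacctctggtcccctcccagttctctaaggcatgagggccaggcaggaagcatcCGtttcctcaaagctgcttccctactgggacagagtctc

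Sema5b and Efna3 hold 19 CG dinucleotides each in this window, Sema3d 4 and Robo4 2. Of the 32851 promoters in the RefSeq table, 19.7% hold 19 or more, 62.2% hold 4 or more and 81.2% hold 2 or more. Promoters were found for 58 of the 67 guidance genes, with a median of 16 CG dinucleotides (range 1 to 46), beside a median of 6 over all promoters in the table. The GC box GGGCGG, searched on both strands, was in 42 of the 58 (72.4%) and in 32.7% of all promoters. These sets are unlike, since the table holds 32851 promoters of 27025 genes. For each guidance gene, all protein-coding, only the promoter nearest to the gene start was taken. The values are descriptions of the letters in the window, and no test was made of them.

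Genes outside the named families were taken from a list of 75 receptors, ligands and effectors of the same pathways. In MEFs 5 of the 72 tested rose and 2 fell, against 5.01% and 4.39% of all genes. With the replicate block 4 rose and 9 fell, against 5.50% and 8.49% of all genes, and the 7 added to those that fell were Rgma, Draxin, Gpc1, Dpysl3, Dpysl4, Fyn and Enah, while Chn2 no longer passed (adjusted p = 0.0556). Without the block those that rose were Flrt3 (1.35, adjusted p = 0.0434), whose protein binds Unc5 and Robo receptors, and the GTPase regulators Tiam1 (2.16, adjusted p = 0.00936), Chn2 (2.21, adjusted p = 0.0459) and Kalrn (1.45, adjusted p = 0.0498), with Rnd1 (1.68, adjusted p = 0.0429). Those that fell were L1cam (-3.47, adjusted p = 0.0436), a co-receptor for Sema3a, and Nck2 (-1.21, adjusted p = 0.0409), an adaptor of Eph receptors. In mESCs 2 of the 72 tested rose, Rhod (1.45, adjusted p = 0.0388) and Dock1 (1.22, adjusted p = 0.0263), and 3 fell, Flrt3 (-2.98, adjusted p = 0.0301), Farp1 (-1.46, adjusted p = 0.0311) and Crk (-1.21, adjusted p = 0.0317), near the 3.08% and 3.88% of all genes. The median log2 fold change of the list was -0.02 in MEFs and -0.18 in mESCs. Flrt3 passed in both cell types in opposite directions, with a difference of 4.40 (SE 0.57, adjusted p = 0.00358).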

How the data were processed

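Poly(A)+ RNA was measured in 11 libraries. The authors prepared TruSeq Stranded mRNA libraries and, per the labels, processed the reads with bcl2fastq 2.17.1.14, cutadapt 1.10, STAR 2.5.3a (mm10), HTSeq 0.6.1p1 and DESeq2 1.16.1. The annotation and the strand setting of the counting are not given in the sources used here. The deposited tables, 1 per cell type, hold raw read counts per gene, and a signal made by the authors, the count after normalization per kb of the median transcript length, used here only for the study's selection rule. The authors' own fold changes and p-values, also deposited, were not used, and their mean columns were not needed.

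The tests were run in edgeR 4.0.16 (R 4.3.3) on the raw counts. Each cell type was filtered with filterByExpr, normalized by TMM and fitted separately with the quasi-likelihood test, leaving 17800 genes in mESCs and 15958 in MEFs. The interaction and the comparison of WT cells used 1 fit of all 11 libraries over 19326 genes, among the 26398 genes listed in both tables. Benjamini-Hochberg adjustment ran over all genes tested, with a threshold of 0.05. Of the 67 guidance genes 60 passed the filter in mESCs, 62 in MEFs and 66 in the fit of all libraries. The genes not tested were Epha3, Epha5, Epha6, Ephb1, Unc5d, Plxna4 and Sema6d in mESCs, Epha6, Epha8, Epha10, Robo4 and Ntn5 in MEFs, and Epha6 in the joint fit. Library totals of 34515342 to 49602605 counts limit what can be seen of such genes. A p-value measures the spread between lines or embryos.

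The members and all lists were chosen with earlier results of these data known. The text names every guidance gene called in the comparisons of genotype, up to 8 per direction in the other comparisons, the 2 members with the highest level in each family and binding partners. Alternatives were RLE and upper-quartile normalization, other filters, DESeq2 1.42.0, the replicate block, removal of the GC trend (lowess span 0.3, prior count 2), the study's selection rule (adjusted p of 0.05 or less, log2 fold change of 1 or more, median signal above 10), 1 fit of all libraries and leaving out each library. Lengths of the longest coding transcripts and GC contents came from GENCODE M21, in which 60 of the 67 guidance genes had the deposited coordinates.

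The labels number replicates within each genotype. Neither the labels nor the study state that equal numbers are pairs. Deviations from the group means of same-numbered MEF libraries correlated with r of 0.473, 0.161 and 0.240 across genes. Since that pairing is read from these same counts, the replicate block was an alternative in MEFs, and the main test had genotype only. In mESCs r was 0.00777 and -0.172, and the numbers were not read as pairs. The fits were also run on simulated counts with 200 changed genes. These held no GC trend, replicate pairing or sex difference, so they cannot show how such features affect the calls. Tables and figures were made with Python 3.11.15, pandas 2.3.3, numpy 2.4.6 and matplotlib 3.10.9.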

Additional observations from a re-analysis of the deposited data

Results flagged for a closer look

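The effect of Atxn7l3 loss differed between MEFs and mESCs for 13 guidance genes by the interaction term of edgeR's quasi-likelihood test. Differences are log2 fold changes in MEFs minus those in mESCs, and no explanation of them was tested. Groups held fewer than 4 libraries, so single libraries were not tested for standing apart.

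Of the ligands, 3 had a positive difference, Sema3d of 8.86 (adjusted p = 0.00693), Sema3e of 4.99 (adjusted p = 0.0121) and Sema4b of 1.31 (adjusted p = 0.0363). A negative difference was found for the ligands Sema5b at -5.66 (adjusted p = 0.0392), Efna3 at -4.81 (adjusted p = 0.00701), Slit2 at -3.26 (adjusted p = 0.0281) and Sema4g at -2.82 (adjusted p = 0.027). Slit2 passed in neither cell type alone (1.65 in mESCs and -1.68 in MEFs).

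Of the receptors, Robo4 differed by 5.20 (adjusted p = 0.0381), Plxna4 by 3.92 (adjusted p = 0.0431) and Epha1 by 2.61 (adjusted p = 0.0195). Negative differences were those of Plxnd1 at -4.36 (adjusted p = 0.0162), Robo2 at -4.29 (adjusted p = 0.0427) and Plxna3 at -2.50 (adjusted p = 0.0433). Sema5b, Robo2, Robo4, Plxna4 and Sema3d had few counts in some mESC or MEF libraries, and the size of their difference depends on those counts.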

How the results depend on the processing

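Counts of guidance genes called moved with the setting, and no called gene changed sign in any alternative run. In Atxn7l3-/- MEFs 3 were called higher and 9 lower. DESeq2 gave 5 and 20, where all genes went from 800 higher and 701 lower to 1723 and 2213 of 15958. The fit of all 11 libraries gave 5 and 19, beside 1513 and 2056 of 19326 genes. With the GC trend removed 4 were lower, and with the replicate block alone 15 were lower. With both, 8 were higher, beside 801 of 15958 genes. With at least 10 counts in every library 5 were lower. That filter left Sema5b, Epha5 and Sema3g untested, and of the other called genes 8 kept their call and 1 lost it. Without 1 library there were 1 to 3 higher and 0 to 9 lower. In mESCs 4 were called higher and 2 lower. DESeq2 gave 11 and 4, where all genes went from 548 and 690 to 1752 and 1684 of 17800. With no filter on low counts there were 8 and 6, beside 1390 and 1605 of 31107 genes. The fit of all 11 libraries gave 0 and 0, beside 144 and 302 of 19326 genes. With at least 10 counts in every library 0 were lower, since that filter left Robo4 and Sema3e, the 2 genes called lower, untested. The 4 genes called higher kept their call under it. Under the study's selection 1 was lower. The replicate block, where mESC numbers do not pair libraries, gave 4 higher and 4 lower, and with the GC trend removed also 4 lower. Without 1 Atxn7l3-/- library there were 0 to 4 higher and 0 to 3 lower. For the interaction, 6 were called higher and 7 lower. With DESeq2 13 were lower, where all genes called lower went from 1018 to 2216 of 19326. With at least 10 counts in every library 2 were higher, and the called genes still tested, 7 in number, kept their call. Leaving out 1 Atxn7l3-/- mESC library or 1 MEF library gave 3 to 6 higher and 2 to 12 lower. For WT cells, 7 lower became 3 with at least 10 counts in every library, where the called genes still tested, 25 in number, kept their call. Under the study's selection 4 were lower. Leaving out 1 library other than a WT mESC library gave 5 to 8 lower and 31 to 35 higher. The causes were not tested.

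Upper-quartile normalization moved the median log2 fold change of all genes from -0.06 to -0.17 in MEFs, and 3 higher and 10 lower were then called. Of the 12 genes called in MEFs, 12 kept their call with the replicate block and with DESeq2, 7 with the GC trend removed and 9 with both. At this depth a library with 3 counts or fewer gives no more than a bound.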

Other observations

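The 3 A-type ephrins Efna1, Efna3 and Efna4 lie side by side, and their WT and Atxn7l3-/- libraries did not overlap in either cell type. For Efna4 in MEFs this held only by the margin of 13.14 CPM in WT replicate 1 and 13.13 CPM in Atxn7l3-/- replicate 3. Such separation was common, with 24.6% of all genes tested higher and 25.1% lower without overlap in mESCs, and 20.0% and 19.8% in MEFs. Efna4 was at 23.4 and 21.3 CPM in WT mESCs and at 12, 17.7 and 12.8 CPM in Atxn7l3-/- mESCs, and at 13.14, 18.2 and 20.0 CPM in WT MEFs and 7.52, 5.66 and 13.13 CPM in Atxn7l3-/- MEFs. The values of Efna4 missed the threshold in mESCs (adjusted p = 0.168) and MEFs (adjusted p = 0.143) by edgeR's quasi-likelihood test.

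Several MEF ligands that missed the threshold were lowest by far in Atxn7l3-/- replicate 2. Sema3b was at 3.81, 0.251 and 3.79 CPM, Sema6a at 4.66, 0.297 and 3.71 CPM and Sema7a at 1.25, 0.114 and 2.75 CPM in the Atxn7l3-/- libraries, while their WT libraries were at 19.2 to 30.3, 14.5 to 32.3 and 6.92 to 18.8 CPM. Ntn1, Robo2 and Sema5b, which fell, were also lowest in that library, for Sema5b with 1 count against 22 and 4 in the other Atxn7l3-/- libraries.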
